A study of Populus trichocarpa with 24 samples.

Results

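Cellulose synthases of the CesA6 type were followed in black cottonwood (Populus trichocarpa) through 6 loci, Potri.005G087500, Potri.007G076500, Potri.005G194200, Potri.002G066600, Potri.013G019800 and Potri.005G027600, out of 41335 loci in the count table. They were chosen by identifier and not by a limit on any measured value, although earlier results of these data were known. All 6 were in the table, and all 6 passed the low-count filter of every fit. That these loci are of the CesA6 type rests on their label and on published poplar nomenclature as recalled. No file used here gives a name for an identifier, so no single name or role is given to any of the loci.

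RNA was sequenced from 8 groups of 3 libraries each. Laser microdissection of developing wood gave captures of fiber cells, of vessel cells, and of fiber, vessel and ray cells together (the mix), and their RNA was amplified before library preparation. Differentiating xylem scraped from debarked stems, fully expanded young leaves, phloem scraped from the inside of the bark, primary roots and shoot tips were sequenced as whole tissues without amplification. All groups were given an age of 6 months, and the trees were untreated and grown in a greenhouse; the roots, though, were taken from young seedlings rooted in water, so that organ and plant differ together for them. No genotype is named. The labels do not tie libraries to trees, and p-values therefore measure only the spread between these libraries, which may be technical.

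Cellulose is made at the plasma membrane by complexes of cellulose synthases, and each complex needs members of more than one class. In Arabidopsis, complexes of the primary wall, the thin wall of growing cells, hold CESA1, CESA3 and a member of the CESA6 group, whose members can partly stand in for one another, while CESA4, CESA7 and CESA8 make cellulose of the thick secondary wall that fibers and vessels lay down after growth. Mutants of Arabidopsis CESA6 have short hypocotyls and roots.

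The capture libraries held 8317935 to 18040299 counts and the tissue libraries 5689642 to 30917688. Captures had counts at 17956 to 28893 loci, against 29994 to 33884 in the tissues. Levels are given as CPM, counts relative to a common library total, with totals scaled by TMM, a method that sets library sizes so that most loci do not differ. The scaling factors were 0.653 to 0.762 in leaf and 1.32 to 1.39 in root, and phloem replicate 3 (0.704) stood apart from the other phloem libraries (both 1.10). Without this scaling all log2 folds of leaf over root shift by -0.95, the largest shift of any comparison here. Levels of different loci are not compared per length, because transcript lengths were not used here, and how reads shared by near-identical loci were assigned is not given in the sources.

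Every CesA6-type locus had counts in all 15 tissue libraries, and their levels followed different orders of the tissues. Potri.005G087500 had its highest tissue mean in xylem, Potri.007G076500 in leaf, and the other 4 loci in root. On unscaled totals Potri.007G076500 was also highest in root, so that 5 of 6 loci were. The highest tissue mean was 2.76 times (Potri.005G194200) to 7.04 times (Potri.005G027600) the lowest of the same locus. Summed over the 6 loci the level was 668 ± 79.3 CPM in xylem, 716 ± 10.9 CPM in leaf, 429 ± 58.2 CPM in phloem, 892 ± 195 CPM in root and 628 ± 28.4 CPM in shoot tip (SD, n = 3 each). Root lay above every other tissue with no overlap, while leaf, xylem and shoot tip overlapped in pairs next to each other in the order of the sums. In whole tissues, fewer cells of a type and less RNA per cell cannot be told apart.

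Potri.005G087500 had 207, 232 and 268 CPM in the xylem libraries and 82.2, 118 and 126 CPM in the leaf libraries. Its level was 84.3, 146 and 132 CPM in phloem, 52.8, 61.9 and 79.6 CPM in root, and 151, 164 and 196 CPM in shoot tip. Every xylem library was above every other tissue library, and shoot tip stood above phloem without overlap. Phloem overlapped with leaf, and root was lowest with no overlap. On unscaled totals leaf had the lowest mean instead (77.3 CPM, against 88.0 CPM in root), and leaf and root libraries overlapped.

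The adjoining locus of the list, Potri.007G076500, had another order. It had 141, 112 and 128 CPM in xylem and 255, 274 and 311 CPM in leaf. In phloem it had 93.9, 87.4 and 104 CPM, in root 159, 184 and 215 CPM, and in shoot tip 184, 186 and 215 CPM. Leaf was above all other tissues, root and shoot tip overlapped below it, xylem came next with no overlap, and phloem was lowest with no overlap.

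Potri.005G194200 was the most variable of the 6 loci among the xylem libraries. It had 296, 157 and 182 CPM in xylem, where replicate 1 stood above the others, and 225, 199 and 161 CPM in leaf. Phloem had 98.1, 68.2 and 110 CPM, root 218, 222 and 320.2 CPM, and shoot tip 189, 143 and 122 CPM. All phloem libraries were below all other tissue libraries, and in the order root, xylem, leaf, shoot tip each neighbouring pair overlapped.

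Potri.002G066600 was highest in root by a wide margin. Its level was 61.2, 54.0 and 47.8 CPM in xylem, 66.0, 49.3 and 55.2 CPM in leaf, and 99.8, 42.0 and 106 CPM in phloem. Root had 178, 179 and 287 CPM, and shoot tip had 52.9, 40.4 and 42.5 CPM. Root stood apart from the remaining tissues, which overlapped with their neighbours in the order phloem, leaf, xylem, shoot tip, and phloem replicate 2 lay well below the other phloem libraries.

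Potri.013G019800 had 9.73, 11.8 and 13.6 CPM in xylem, the lowest tissue for this locus, and 42.6, 40.5 and 40.4 CPM in leaf. It had 19.7, 22.8 and 23.4 CPM in phloem, 51.1, 57.2 and 70.4 CPM in root, and 40.5, 42.5 and 45.9 CPM in shoot tip. Of its neighbours in the order root, shoot tip, leaf, phloem, xylem, shoot tip and leaf alone overlapped. It was also the most even locus within tissues, with a median SD of 0.13 on the log2(CPM + 1) scale over the 5 tissues, against 0.14 to 0.32 for the other loci.

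Potri.005G027600 had 32.7, 22.1 and 25.8 CPM in xylem, 40.1, 27.8 and 35.7 CPM in leaf, and 17.6, 13.04 and 17.7 CPM in phloem. Root had 95.4, 101 and 143 CPM, and shoot tip had 28.2, 19.0 and 21.7 CPM. The lowest root library was above the highest library of any other tissue, phloem was below all others, and leaf, xylem and shoot tip overlapped in turn.

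**Figure D1:**
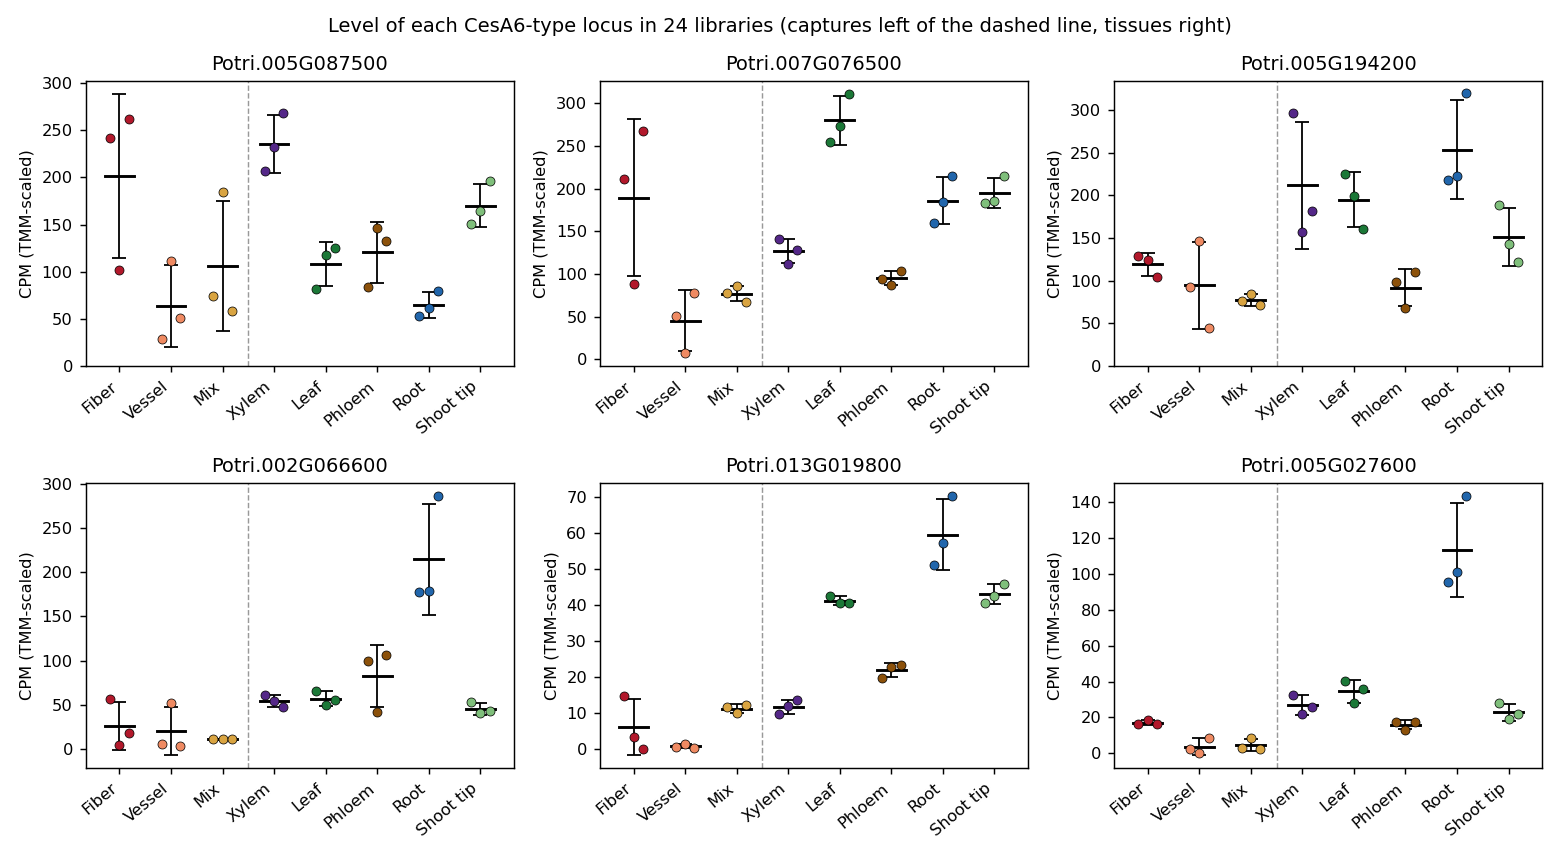
Level of each locus in CPM (TMM-scaled) on a linear axis, 1 panel per locus with its own scale; points are the 3 libraries of a group, the thick line is their mean and the bars are 1 SD. Captures stand left of the dashed line. Xylem libraries are the highest tissue libraries of Potri.005G087500 (207 to 268 CPM), leaf libraries those of Potri.007G076500 (255 to 311 CPM), and root libraries those of Potri.002G066600, Potri.013G019800 and Potri.005G027600.

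The tissues were then compared in pairs with edgeR's quasi-likelihood test on the counts of the 15 tissue libraries. A call required an adjusted p (Benjamini-Hochberg, over the 31308 loci tested) below 0.05 together with an absolute log2 fold of at least 1. Of 60 combinations of a CesA6-type locus and a pair of tissues, 23 were called. Per pair, 29.8% (leaf over shoot tip) to 52% (root over shoot tip) of all loci tested were called. Pairs share libraries, so their calls are not independent of each other.

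Against root, CesA6-type loci were lower in the other tissues more often than higher. In xylem over root, 3 of 6 loci were lower and 1 was higher, while 48.6% of all loci tested were called in either direction. Potri.013G019800 (log2 fold -2.42, SE 0.17, adjusted p = 3.4e-08), Potri.005G027600 (-2.14, SE 0.23, adjusted p = 2.2e-06) and Potri.002G066600 (-2.05, SE 0.31, adjusted p = 4.6e-05) were lower in xylem. Potri.005G087500 was higher in xylem, by a log2 fold of 1.79 (SE 0.25, adjusted p = 2.0e-05). In leaf over root 2 of 6 were called, both lower, against 51.3% of all loci: Potri.002G066600 with a log2 fold of -1.91 and Potri.005G027600 with -1.71. On unscaled totals 4 were called, with Potri.005G194200 (-1.34) and Potri.013G019800 (-1.48) added. In phloem over root 4 of 6 were called, all lower, against 51.4% of all loci, and the log2 folds were -2.84 for Potri.005G027600, -1.49 for Potri.005G194200, -1.47 for Potri.013G019800 and -1.40 for Potri.002G066600. DESeq2 called 5 of 6 in this pair, adding Potri.007G076500, whose fold of -0.99 by edgeR lay just short of the limit. The median log2 fold of the 6 loci was -1.43 in phloem over root, against -0.02 over all loci tested. In root over shoot tip 3 of 6 were called, against 52% of all loci: Potri.005G027600 (2.29) and Potri.002G066600 (2.24) were higher in root and Potri.005G087500 (-1.40) was lower. Counts of 2 to 4 in 6 lie around the share of all loci called in these pairs, and the counts alone do not set the CesA6-type loci apart.

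Xylem, in which cells divide, expand and then build secondary walls, was called against phloem and against shoot tip at 1 locus each and against leaf at 3. In xylem over phloem 1 of 6 loci was called, against 36% of all loci, and this was Potri.005G194200 with a log2 fold of 1.16 (SE 0.28, adjusted p = 0.0030). The call was lost without xylem replicate 1 (0.84) or phloem replicate 2 (0.98). Potri.005G087500 had 0.92 in the same comparison (adjusted p = 0.0053), short of the fold limit, and was called at 1.02 on unscaled totals. Potri.013G019800 went the other way, with -0.95 and an adjusted p of 2.5e-04 by edgeR's quasi-likelihood test, also short of the limit. It was called without xylem replicate 3 (-1.02) or phloem replicate 1 (-1.03). Of the 6 folds in this comparison 4 were positive. In xylem over shoot tip 1 of 6 was called, against 45.8% of all loci: Potri.013G019800 was lower in xylem, with a log2 fold of -1.95 (SE 0.17, adjusted p = 2.3e-07). In xylem over leaf 3 of 6 were called, against 49.6% of all loci. Potri.005G087500 was higher in xylem by 1.04 (adjusted p = 0.0016), and the call was lost without leaf replicate 1 (0.93). Potri.007G076500 was lower by -1.22 (adjusted p = 2.2e-05), a call lost on unscaled totals (-0.65), and Potri.013G019800 was lower by -1.89 (adjusted p = 1.6e-07).

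**Figure D2:**
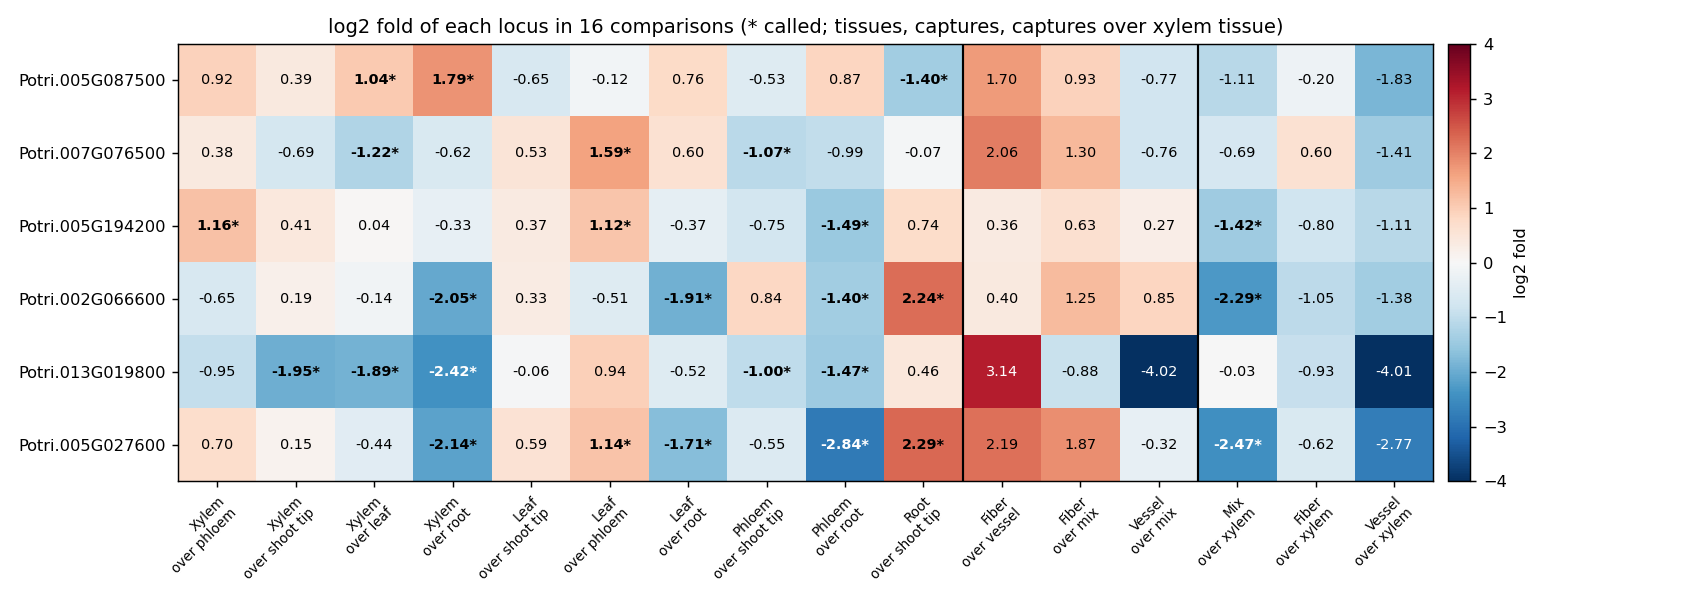
Fitted log2 fold of each locus (rows) in 16 comparisons (columns, first-named group over second-named), with colours from -4 (blue) to 4 (red); an asterisk marks a call by edgeR's quasi-likelihood test with an absolute log2 fold of at least 1. The asterisks are 23 among the 10 pairs of tissues, 0 among captures and 3 in the mix over xylem tissue.

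Between leaf and shoot tip no CesA6-type locus was called. In leaf over shoot tip 0 of 6 were called by edgeR's quasi-likelihood test, against 29.8% of all loci, and DESeq2 called 0 as well. The same 3 loci had an unadjusted and an adjusted p below 0.05 and fell short of the fold limit alone. The log2 folds ran from -0.65 for Potri.005G087500 to 0.59 for Potri.005G027600. On unscaled totals Potri.005G087500 was called lower in leaf, at -1.25 (adjusted p = 0.0015), and the folds of 4 other loci changed sign, to between -0.30 and -0.0447, none of them called.

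Where CesA6-type loci were called between phloem and leaf or shoot tip, they were lower in phloem. In leaf over phloem 3 of 6 loci were called and all were higher in leaf, against 45.2% of all loci called: Potri.007G076500 with a log2 fold of 1.59 (adjusted p = 2.2e-06), Potri.005G027600 with 1.14 and Potri.005G194200 with 1.12. The calls of Potri.005G027600 and Potri.005G194200 were lost without leaf replicate 1 (0.99 and 0.98), without phloem replicate 2 (0.99 and 0.93) and on unscaled totals (0.65 for each). In phloem over shoot tip 2 of 6 were called and both were lower in phloem, against 31.1% of all loci. Potri.007G076500 had a log2 fold of -1.07, which was -0.96 and not called without shoot tip replicate 3, and Potri.013G019800 had -1.002, at the fold limit itself, and lost its call under 10 alternatives, with folds of -0.9996 to -0.92. Potri.002G066600 had 0.84 in phloem over shoot tip (adjusted p = 0.035) and was called only without phloem replicate 2, at 1.16.

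The make-up of the CesA6-type counts differed between tissues as well. These are shares of reads, which depend on transcript length, so they are read across tissues and not across loci. Potri.005G087500 gave 35.8% ± 7.04 of the 6 loci's counts in xylem, 15.2% ± 3.13 in leaf, 28.6% ± 9.17 in phloem, 7.28% ± 0.37 in root and 27.1% ± 3.57 in shoot tip (SD, n = 3 each). Potri.007G076500 gave 39.1% ± 3.42 in leaf, and between 19.1% and 31.05% on average in the other tissues. Root drew on Potri.002G066600 and Potri.005G027600 for 23.8% ± 1.77 and 12.7% ± 0.16 of its counts, while Potri.005G027600 gave 3.65% to 4.82% on average in the other 4 tissues. Potri.002G066600 had a mean share of 7.20% to 8.18% in xylem, leaf and shoot tip and 18.9% ± 6.91 in phloem. Potri.013G019800 gave 1.78% ± 0.42 in xylem and 5.17% to 6.86% on average in the other tissues. Among the tissues Potri.005G194200 had its highest mean share in xylem (31.2% ± 7.28) and its lowest in phloem (21.3% ± 2.99). The xylem mean rested on replicate 1 (39.6%), and replicates 2 and 3 (26.6% and 27.3%) lay below the root libraries (27.6% to 28.9%).

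**Figure D3:**
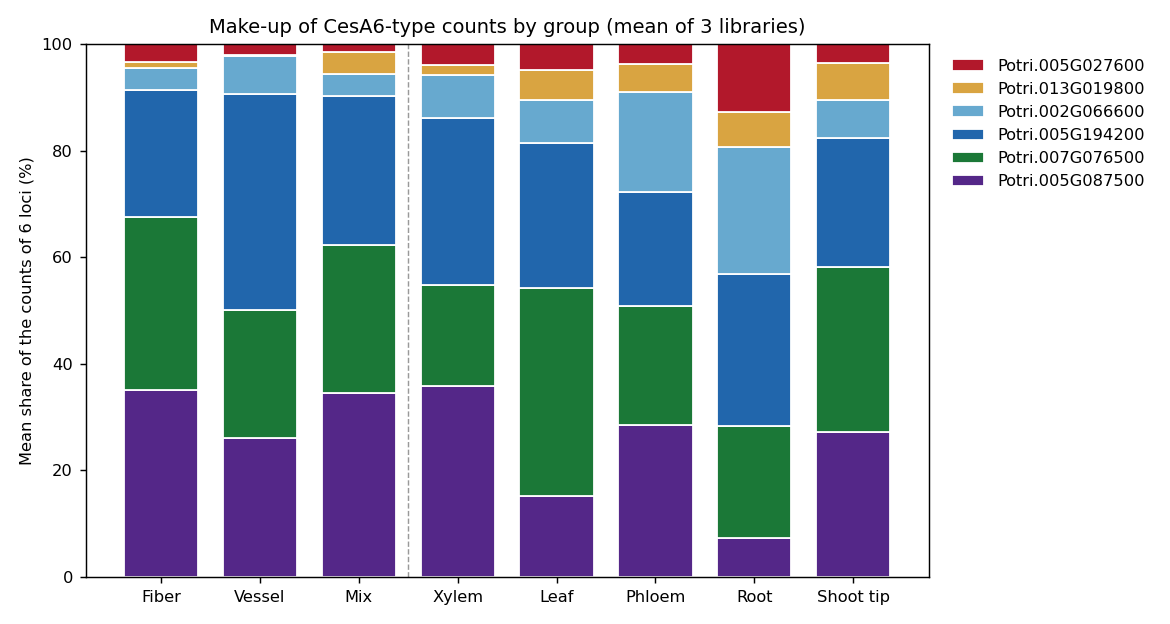
Mean share of each locus in the counts of the 6 loci (percent, stacked to 100) for each group of 3 libraries; captures stand left of the dashed line. The share of Potri.005G087500 is 35.8% in xylem and 7.28% in root, where Potri.002G066600 and Potri.005G027600 together fill a larger part than in any other group.

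Ratios of 2 loci within a library need no scaling, and length drops out of their difference between tissues. Within 3 pairs of loci that stand next to each other in the list, the log2 ratio in each tissue was set against the other 12 tissue libraries with a two-sided exact permutation test over all ways to choose 3 of the 15 libraries, whose smallest possible p is 0.0022. The ratio of Potri.005G087500 to Potri.007G076500 was 1.47, 2.07 and 2.09 in the xylem libraries. It was 0.32, 0.43 and 0.40 in leaf, 0.90, 1.67 and 1.28 in phloem, 0.33, 0.34 and 0.37 in root, and 0.82, 0.88 and 0.91 in shoot tip. Every leaf, root and shoot tip library thus held fewer counts of Potri.005G087500 than of Potri.007G076500, every xylem library held more, and phloem libraries lay on both sides. The mean log2 ratio was 0.89 ± 0.29 in xylem (SD, n = 3) and -0.70 ± 0.84 in the other libraries (n = 12), a difference of 1.59 with an exact permutation p of 0.0044 and an adjusted p of 0.066 over the 15 tests.

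The second pair separated phloem and root from the rest. Potri.005G194200 had 0.98, 1.62 and 1.03 counts per count of Potri.002G066600 in phloem and 1.22, 1.24 and 1.12 in root, against 2.87 to 4.83 in the xylem, leaf and shoot tip libraries. Against all other tissue libraries, each of these tissues gave an exact permutation p with an adjusted value of 0.071, for a log2 difference of -1.18 in phloem and -1.16 in root. Root was among the libraries that phloem was set against, and phloem among those for root. Potri.013G019800 had 0.30, 0.54 and 0.53 counts per count of Potri.005G027600 in xylem and 0.54, 0.57 and 0.49 in root, against 1.06 to 2.23 in leaf, phloem and shoot tip. For this last pair the log2 difference was -1.37 in xylem and 1.27 in shoot tip, each with an adjusted exact permutation p of 0.071. In all, 6 of 15 ratio tests had an unadjusted p below 0.05 and 0 an adjusted one. Without phloem replicate 2 there were 2, at an adjusted p of 0.041.

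**Figure D4:**
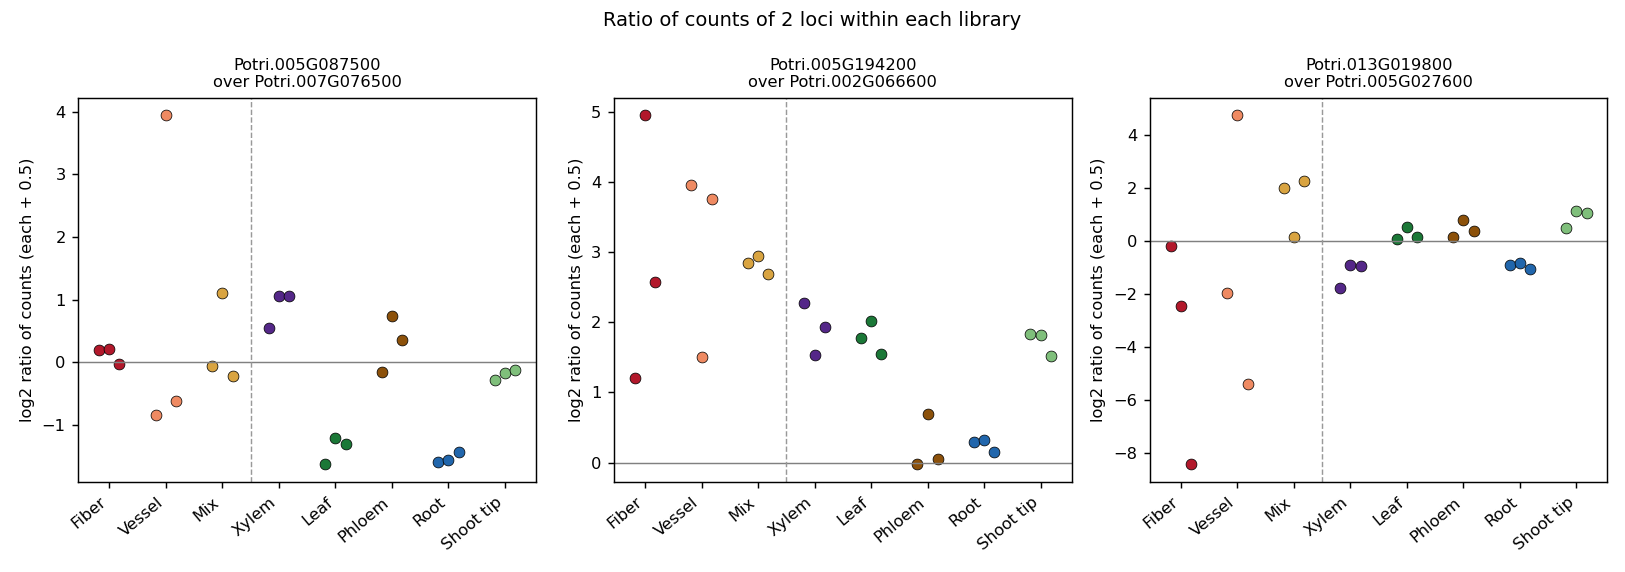
log2 ratio of the counts of 2 loci in each library, with 0.5 added to each count, for 3 pairs of loci; a value of 0 means equal counts, and captures stand left of the dashed line. In the left panel xylem libraries lie between 0.55 and 1.06 and root libraries between -1.59 and -1.43; the points of fiber replicate 3 and vessel replicate 2 in the right panel rest on a locus with 0 counts and on the 0.5 added.

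In the laser captures CesA6-type levels were scattered within groups. Summed over the 6 loci, fiber had 669.6, 342 and 668 CPM, vessel had 181, 318 and 186 CPM, and the mix had 253, 385 and 222 CPM. Every fiber library was thus above every vessel library, although fiber replicate 2 and vessel replicate 2 lay close together, and the mix overlapped with both.

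Potri.005G087500 had 242, 102 and 262 CPM in fiber, 28.3, 112 and 50.9 CPM in vessel, and 74.3, 185 and 58.0 CPM in the mix. Fiber replicate 2, vessel replicate 2 and mix replicate 2 each stood apart from the other libraries of their group, and fiber and vessel overlapped. Potri.007G076500 had 212, 88.6 and 268 CPM in fiber, 50.8, 7.23 and 78.0 CPM in vessel, and 77.9, 86.0 and 67.6 CPM in the mix. Its fiber libraries were all above its vessel and mix libraries. On unscaled totals, though, fiber replicate 2 (87.9 CPM) lay below mix replicate 2 (91.2 CPM). The value of 7.23 CPM in vessel replicate 2 rested on 72 counts, beside 674 and 909 in the other vessel libraries.

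The remaining loci differed in their scatter within groups. Potri.005G194200 had 129, 125 and 104 CPM in fiber, 93.2, 146 and 44.5 CPM in vessel, and 76.1, 84.6 and 71.1 CPM in the mix. Potri.002G066600 had 56.0, 4.0 and 17.5 CPM in fiber, 5.96, 51.6 and 3.26 CPM in vessel, and 10.6, 10.98 and 11.04 CPM in the mix, so that fiber and vessel spanned more than 10-fold each while the mix was even. Potri.013G019800 had 14.7, 3.37 and 0 CPM in fiber, 0.60, 1.31 and 0.17 CPM in vessel, and 11.6, 9.86 and 12.1 CPM in the mix. In vessel these were 8, 13 and 2 counts, and the 0 of fiber replicate 3 allows a level of up to 0.29 CPM at 3 counts, a limit that covers counting error only. Potri.005G027600 had 16.4, 18.5 and 16.6 CPM in fiber, 2.41, 0 and 8.84 CPM in vessel, and 2.83, 8.73 and 2.499 CPM in the mix, and the 0 of vessel replicate 2 allows up to 0.30 CPM. All fiber libraries of this locus were above all vessel and mix libraries, and they were the most even of any locus in fiber.

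Tests within the captures made no call of a CesA6-type locus. In fiber over vessel, edgeR's quasi-likelihood test called 0 of 6 loci, against 6.05% of 22828 loci tested, with 2 loci at an unadjusted p below 0.05. All 6 log2 folds were positive, from 0.36 (SE 0.43) for Potri.005G194200 to 3.14 (SE 1.95) for Potri.013G019800, with a median of 1.88, against a median of 0 over all loci. The smallest adjusted p was 0.11, for Potri.007G076500 (log2 fold 2.06, SE 0.72), the single locus that DESeq2 called (1.97, adjusted p = 0.044). With voom and sample weights 0 were called. In fiber over mix 0 of 6 were called, against 0.346% of all loci, and in vessel over mix 0 of 6, against 0.0131%. Each of these had 0 loci at an unadjusted p below 0.05, and DESeq2 and voom called 0 in both. The biological coefficient of variation, the typical spread between replicates beyond counting error, was 111.3% in the captures and 27.5% in the tissues. Fiber and vessel libraries also differed in the secondary wall loci, whose sum was 8959 CPM (SD 1792) across the fiber libraries and 1350 CPM (SD 413) across the vessel libraries (n = 3 each); their part in the CesA6-type values was not tested.

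Set beside whole xylem tissue, the mix had CesA6-type loci that were called lower, and fiber and vessel had no call. These comparisons were fitted apart, with biological coefficients of variation of 36.9% for the mix, 73.4% for fiber and 104.2% for vessel. Their numbers of calls are therefore not like for like. The median log2 fold of the 6 loci over xylem tissue was -1.27 in the mix, -0.71 in fiber and -1.62 in vessel. Amplification separates all captures from all tissues and cannot be told apart from the sample type. In mix over xylem tissue, edgeR's quasi-likelihood test called 3 of 6 loci, all lower in the mix, against 38.2% of 25245 loci: Potri.005G027600 (log2 fold -2.47, SE 0.51, adjusted p = 0.0060), Potri.002G066600 (-2.29, SE 0.18, adjusted p = 1.8e-04) and Potri.005G194200 (-1.42, SE 0.28, adjusted p = 0.0048). Potri.005G087500 had -1.11 (adjusted p = 0.067); it was called by DESeq2 (-1.14), by voom (-1.40), with the replicate block (-1.31) and without mix replicate 2 (-1.81), so that each of these called 4 of 6. Potri.013G019800 had 11.2 ± 1.19 CPM in the mix and 11.7 ± 1.93 CPM in xylem tissue (SD, n = 3 each), a log2 fold of -0.03 with an SE of 0.23.

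In fiber over xylem tissue 0 of 6 loci were called by edgeR's quasi-likelihood test, against 22.4% of 23735 loci, with 1 locus at an unadjusted p below 0.05 and 0 calls by DESeq2 or voom. Potri.005G087500 had 202 ± 87.0 CPM in fiber and 236 ± 30.7 CPM in xylem tissue, and Potri.007G076500 had 189 ± 91.8 CPM in fiber and 127 ± 14.5 CPM in xylem tissue (SD, n = 3 each). In vessel over xylem tissue edgeR's quasi-likelihood test called 0 of 6, against 17.4% of 24194 loci, with 2 loci at an unadjusted p below 0.05, while DESeq2 called 2 and voom 1. All 6 log2 folds were negative, from -1.11 for Potri.005G194200 to -4.01 for Potri.013G019800, with a median of -1.62, against -0.21 over all loci, of which 1084 were called higher and 3114 lower. The smallest adjusted p was 0.051 for Potri.005G087500 (-1.83, SE 0.50). With the replicate number as a block Potri.005G087500 was called at -2.05 (adjusted p = 0.035). On unscaled totals 1 locus was called as well. Without vessel replicate 2 the calls were 3, Potri.005G087500 at -2.4996, Potri.002G066600 at -3.48 and Potri.013G019800 at -4.80. Without vessel replicate 3 the call was Potri.013G019800 alone, at -3.57.

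Cellulose synthases of the CesA1/CesA3 type, the partners of the CesA6 type in the primary wall complex, were given by 6 further loci, and secondary wall cellulose synthases by 5. Both lists were recalled in the same way and were not checked by annotation. Of the counts of the 12 primary wall loci, those of the CesA6 type took 59.9% ± 7.62 for fiber, 48.4% ± 8.09 for vessel and 51.5% ± 2.87 for the mix (SD, n = 3 each); fiber ran from 51.4% to 66.0% and vessel from 41.5% to 57.3%. In the tissues they took 47.7% ± 0.47 in xylem, 47.9% ± 1.87 in leaf, 44.1% ± 1.91 in phloem, 53.3% ± 1.22 in root and 46.3% ± 0.52 in shoot tip (SD, n = 3 each). The root libraries, at 52.5% to 54.7%, lay above all other tissue libraries, which had 42.5% to 49.9%.

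The CesA1/CesA3-type sum varied less over the tissues than the CesA6-type sum. It was highest in leaf, at 782 ± 61.8 CPM, and lowest in phloem, at 540.4 ± 30.4 CPM (SD, n = 3 each), the highest mean being 1.45 times the lowest, against 2.08 times for the CesA6-type loci. On unscaled totals these were 2.03 and 2.97 times. Over the 10 pairs of tissues 18 of 60 CesA1/CesA3-type combinations were called, against 23 of 60 of the CesA6 type. The share of all loci tested that was called ran from 29.8% to 52% per pair. Totals over 10 pairs are not of a kind with a share of 1 pair, and whether either list stands apart was not tested. In xylem over root 1 of 6 CesA1/CesA3-type loci was higher and 1 lower, against 1 higher and 3 lower of the CesA6 type, and in phloem over root 1 was higher and 0 lower, against 0 higher and 4 lower. Of all loci tested, 48.6% were called in xylem over root and 51.4% in phloem over root, in either direction. In leaf over shoot tip 1 was higher and 2 lower, against 0 calls of the CesA6 type, and in xylem over shoot tip 2 were lower, against 1 lower. The shares of all loci called in these pairs were 29.8% and 45.8%, in that order. In mix over xylem tissue 5 of 6 CesA1/CesA3-type loci and 5 of 5 secondary wall loci were lower. There 3 of 6 loci of the CesA6 type were lower, and 38.2% of all loci tested were called in either direction. The difference between the lists was not tested.

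The secondary wall loci describe how far a library held secondary wall transcripts. For each CesA6-type count they gave 16.8 ± 3.94 counts in the fiber libraries, 5.95 ± 0.18 in the vessel libraries, 9.25 ± 2.97 in the mix and 14.3 ± 3.55 in xylem tissue (SD, n = 3 each). The other 4 tissues had 0.17 ± 0.04 in leaf, 0.65 ± 0.17 in phloem, 0.17 ± 0.02 in root and 0.20 ± 0.05 in shoot tip. The CesA6-type sum in xylem thus lay within the range of the other tissues, while all 5 secondary wall loci were called higher in xylem than in each of them.

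**Figure D5:**
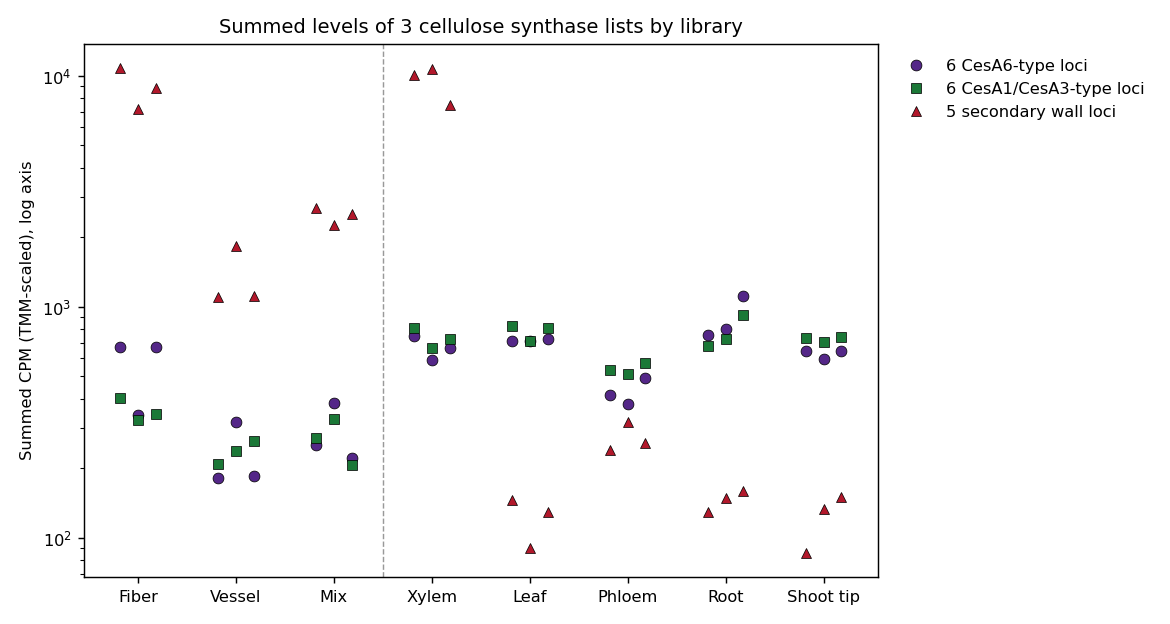
Summed level of 3 lists of cellulose synthase loci in each library, in CPM (TMM-scaled) on a log axis; each point is a library and captures stand left of the dashed line. CesA6-type sums lie between 379.6 and 1116 CPM in the tissues, whereas secondary wall sums reach 10786 CPM in a fiber library and go down to 86.3 CPM in a shoot tip library.

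Across the 15 tissue libraries the loci did not form 1 pattern. Likeness was measured as Pearson's r of log2(CPM + 1); libraries of a tissue cluster, so r mostly follows the 5 tissue means, and the libraries share their depth and scaling. Potri.005G087500 had a negative r with each of the other 5 loci, from -0.76 with Potri.002G066600 to -0.23 with Potri.007G076500. The most alike members were Potri.002G066600 and Potri.005G027600 (r = 0.81) and then Potri.005G194200 and Potri.005G027600 (r = 0.77). Potri.005G087500 was more like a CesA1/CesA3-type locus, Potri.006G052600, with r = 0.90 and rank 53 of 21297 ranked loci, than like any member of its own list. With the 5 secondary wall loci it had r of 0.61 to 0.66, also above its r with every member. Potri.007G076500 too was more like a CesA1/CesA3-type locus, Potri.018G029400 (r = 0.85, rank 480), than like any member (highest r 0.66, with Potri.013G019800). Potri.013G019800 was most like the CesA1/CesA3-type locus Potri.018G029400 (r = 0.88, rank 176) among the cellulose synthases, and had r of -0.89 to -0.85 with the 5 secondary wall loci.

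Potri.006G052600 is singled out for its r over these same libraries, so its folds describe that likeness again and are no separate evidence of it. Its log2 fold was 3.20 (SE 0.22) in xylem over root, 2.52 (SE 0.21) in xylem over leaf, 1.30 (SE 0.20) in xylem over phloem and 0.64 (SE 0.20) in xylem over shoot tip, against 1.79, 1.04, 0.92 and 0.39 for Potri.005G087500. The first 3 of these were called for Potri.006G052600. These comparisons share the xylem libraries.

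The single most alike locus outside the list was Potri.004G194400 for Potri.005G087500 (r = 0.95), Potri.006G063700 for Potri.007G076500 (r = 0.98), Potri.010G168500 for Potri.005G194200 (r = 0.94), Potri.002G003800 for Potri.002G066600 (r = 0.96), Potri.001G384700 for Potri.013G019800 (r = 0.97) and Potri.011G131700 for Potri.005G027600 (r = 0.98). Each was the closest of 21297 loci with a mean of at least 5 CPM, and a high r is usual at the top of so long a list.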

How the data were processed

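The authors deposited 1 table of raw read counts per locus, whole numbers that were not normalized, with 24 columns that each matched 1 sample title; 0 columns had no sample. The submitters' processing notes name TopHat, without a version; genome build, annotation, counter and strand are not given in the sources. Of the 41335 identifiers 0 matched the reference table (assembly P.trichocarpa_v4.1), so names, sequences, lengths and lists by product name were not used here.

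Counts were analysed with edgeR 4.0.16 (filterByExpr, TMM, quasi-likelihood test, R 4.3.3) over all loci, with 15 tissue libraries, 9 captures, or the 6 libraries of a capture and xylem tissue in a fit; a standard error is the size of the log2 fold over the root of the F statistic. DESeq2 1.42.0 and limma 3.58.1 were alternatives, with other scalings, no low-count filter, other sets of libraries, a replicate block and each replicate left out. The method was run on simulated data as a check of the code, and no result here rests on it. Limits from 3 counts reflect counting error alone.

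All replicate pairs differed beyond sampling noise (chi-square per degree of freedom 5.5 to 225.2) and none was merged. Deviations from group means of same-numbered libraries correlated above 0.1 for all numbers in xylem with shoot tip (0.34, 0.19 and 0.37), leaf (0.13, 0.22 and 0.32) and phloem (0.17, 0.41 and 0.21), and not in the other 13 pairs of groups; the labels state no pairing.

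All 6 loci entered every result and are named with their levels, while some comparisons name only part of them. Other loci are named where most alike to a member, or where they are cellulose synthases in that ranking. The loci, lists and tests were chosen with earlier results of these data known.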

Additional observations from a re-analysis of the deposited data

How the results depend on the processing

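Of the 96 log2 folds of the 6 loci, 26 were called, and 0 of these changed sign under any alternative. Between tissues 23 calls became 41 without the fold limit and 10 in a fit of all 24 libraries, which takes its spread from the captures too; leaving out 1 library at a time gave 20 to 25. Leaving aside the fit of all 24 libraries, 7 of the 23 calls were lost under at least 1 alternative, libraries left out included; unscaled totals lost 3 and gained 7. Signs of uncalled folds changed 35 times over all alternatives, 10 of them on unscaled totals, among which were Potri.005G027600 (-0.0447) and Potri.007G076500 (-0.0847) in leaf over shoot tip, and Potri.005G087500 (-0.19) and Potri.007G076500 (-0.35) in leaf over root.

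In fiber over vessel 0 calls became 1 with DESeq2 and 4 in the fit of all 24 libraries, and in vessel over mix 0 became 1 in that fit. In vessel over xylem tissue 0 became 2 with DESeq2, 1 on unscaled totals, 1 with voom and 1 with the replicate block, and leaving out 1 library at a time gave 0 to 3. The block added 1 call in mix over xylem tissue, giving 4, and changed 0 of the 23 tissue calls and 0 of the calls between captures and in fiber over xylem tissue. For the locus ratios, leaving out 1 library gave 0 to 2 tests below 0.05. The causes were not tested. Capture libraries held 8317935 to 18040299 counts at 17956 to 28893 loci, and tissue libraries 5689642 to 30917688 counts at 29994 to 33884 loci. The biological coefficient of variation was 111.3% in captures and 27.5% in tissues.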
